A study of Mus musculus with 8 samples.

Results

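The CC chemokine genes Ccl2, Ccl5, Ccl6, Ccl7, Ccl8, Ccl11, Ccl17, Ccl19, Ccl22 and Ccl27a were described in single cells of mouse dorsal skin. They were found by their symbols, and are 10 of the 31017 gene symbols in the files. The libraries came from the dorsal skin of female BALB/c mice at an age of 14-16 weeks, with 4 libraries after injection of PBMCsec and 4 after injection of vehicle, numbered 1 to 4 in each group. PBMCsec is the cell-free secretome of irradiated human peripheral blood mononuclear cells, and the labels name a subcutaneous injection. In the study's methods the injections went into scars of healed wounds and the controls were NaCl or medium, but the labels name neither a wound, a time point nor the control solution, so these could not be assigned to libraries. The labels also do not say that each library was a separate animal. All mice were of 1 inbred strain and 1 sex, and the labels name no altered gene. Where libraries were not from separate animals, the spread between them is technical, and the p-values then measure that spread alone.

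CC chemokines are small secreted proteins that attract leukocytes through receptors on the surface of the attracted cell. In the skin, Ccl2, Ccl7 and Ccl8 draw monocytes and other leukocytes, Ccl11 draws eosinophils through Ccr3, and Ccl5 draws T cells and monocytes. Ccl6 is a rodent chemokine of myeloid cells. Ccl17 and Ccl22 share the receptor Ccr4, which marks T cells that home to skin, Ccl19 guides Ccr7-positive dendritic and T cells, and Ccl27a is the chemokine of keratinocytes that attracts Ccr10-positive T cells.

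The counts are unique molecular identifiers (UMIs), each of which marks 1 captured RNA molecule, and levels are UMIs of the gene per 1000000 UMIs of the cells summed (CPM). Of 26231 deposited barcodes 6150 passed the study's filter, between 151 and 1659 per library, and 16900 barcodes (64.4%) were over its mitochondrial limit of 5%. The deposited totals lay between 14753926 and 37880651 UMIs per library, those of the kept cells between 1194916 and 12740858, and the median UMIs per kept cell between 6156 and 9521. Only 4 barcodes were shared between libraries. Clusters were called "-like" a cell type when at least 3 of its markers were detected, and the skin held its defining classes: 2838 keratinocyte- and hair follicle-like cells (KC/HFs), 1560 fibroblast-like cells (FBs), 770 T cell-like cells (TCs), 230 dermal dendritic cell-like cells (dermal DCs), 162 macrophage-like cells (Macro), 124 Langerhans-like cells, 121 neutrophil-like cells, 88 cells like type 2 innate lymphoid cells (ILC2), 83 endothelial-like cells (ECs), 38 smooth muscle or pericyte-like cells (SMC/PCs) and 28 mast cell- or basophil-like cells. The listed chemokine genes were kept out of the clustering. A cluster of 108 cells stayed unnamed.

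The genes lie on 3 chromosomes (GRCm38, GENCODE release M21). On chromosome 11, Ccl2 (chr11:82035571-82037453, + strand), Ccl7 (chr11:82045712-82047525, +), Ccl11 (chr11:82057823-82062955, +) and Ccl8 (chr11:82115185-82116799, +) form 1 group, with 8258 bases between Ccl2 and Ccl7. Ccl5 (chr11:83525778-83530518, - strand) and Ccl6 (chr11:83587882-83593087, -) lie farther along the same chromosome. Ccl22 (chr8:94745590-94751699, +) and Ccl17 (chr8:94810453-94812036, +) are neighbours, 58753 bases apart. Ccl27a (chr4:41769467-41774247, -) and Ccl19 (chr4:42754525-42756577, -) are on chromosome 4. Ccl27a overlaps Il11ra1, to which 9844 UMIs were assigned, and Gm13305, a gene model that led the same keratinocyte cluster, held 881 UMIs. Ccl2 overlaps Gm17268, Ccl6 overlaps E230016K23Rik and Ccl19 overlaps 4930578G10Rik, so that reads of these pairs may have been split in the counting.

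The bases before the start site are shown for Ccl8, the chemokine with the largest difference between the treatments in all kept cells, and for Ccl17, whose neighbour Ccl22 was detected in the same cells. They were read from RefSeq (GRCm38.p6), 250 bases before the start, 5′ to 3′, with the motifs that were found in capitals.
Ccl8 (chr11:82114935-82115184, +): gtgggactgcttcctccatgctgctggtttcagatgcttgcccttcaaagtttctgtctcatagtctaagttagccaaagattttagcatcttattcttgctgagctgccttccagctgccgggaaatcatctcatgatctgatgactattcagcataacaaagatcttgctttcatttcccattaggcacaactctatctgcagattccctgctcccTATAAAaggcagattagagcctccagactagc
Ccl17 (chr8:94810203-94810452, +): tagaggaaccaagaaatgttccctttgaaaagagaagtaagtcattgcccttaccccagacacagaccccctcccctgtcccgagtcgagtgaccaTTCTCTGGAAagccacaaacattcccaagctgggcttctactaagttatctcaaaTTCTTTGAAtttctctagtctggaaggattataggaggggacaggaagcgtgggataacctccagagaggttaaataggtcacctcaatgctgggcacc
In Ccl8 the capitals mark a TATA box (TATAAA), which began 32 bases before the start and was found in 12.4% of the 32851 windows of this length upstream of mouse genes. In Ccl17 they mark TTC and GAA with 4 bases between them (TTCTCTGGAA), the spacing preferred by STAT6, and with 3 bases between them (TTCTTTGAA), the general STAT spacing, which were in 5.85% and 7.02% of all windows. The window of Ccl22 (chr8:94745434-94745683, +) held neither of these, and 2 matches to a loose NF-kB pattern, GGG and CC with 5 bases between them, which was in 45.8% of windows (GGCAGTCCCC and GGATCCTCCC, both on the opposite strand). TGANTCA, the AP-1 pattern in 6.75% of windows, was found in 1 of the 3 windows of Ccl27a (TGACTCA). All patterns were searched on both strands. Of the 10 genes 6 had an entry, that of Ccl6 held none of these motifs and that of Ccl19 held 1 match to the NF-kB pattern (GGGAAGACCC). A match is a run of letters and no evidence of binding.

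Each chemokine had 1 or 2 main sources among the cells. At least 1 UMI of the 10 genes was found in 3449 of the 6150 cells (56.1%). FBs held 86.2% of the Ccl2, 87.5% of the Ccl7, 97.7% of the Ccl11 and 97.1% of the Ccl19 UMIs. Macro held 72.6% of Ccl8 over both treatments, TCs held 89.3% of Ccl5, dermal DCs held 99.5% of Ccl22, and KC/HFs held 98.7% of Ccl27a. Ccl6 was divided between dermal DCs (42.2%), Macro (37.3%), mast cell- or basophil-like cells (10.4%) and neutrophil-like cells (7.17%). At the mitochondrial limit of 5% the source of Ccl8 leaned more to FBs in the vehicle libraries, though the ranges of Macro overlapped. Macro held 9.35% to 64.8% and FBs 33.3% to 80.2% of its UMIs in the vehicle libraries. In the PBMCsec libraries these shares were 63.9% to 88.3% and 9.5% to 30.5%. In vehicle library 3 Macro held 50 Ccl8 UMIs at this limit and 1767 at a limit of 10%. The classes come from clusters of the same cells, so their levels are given as a description and were not tested against each other.

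**Figure D1:**
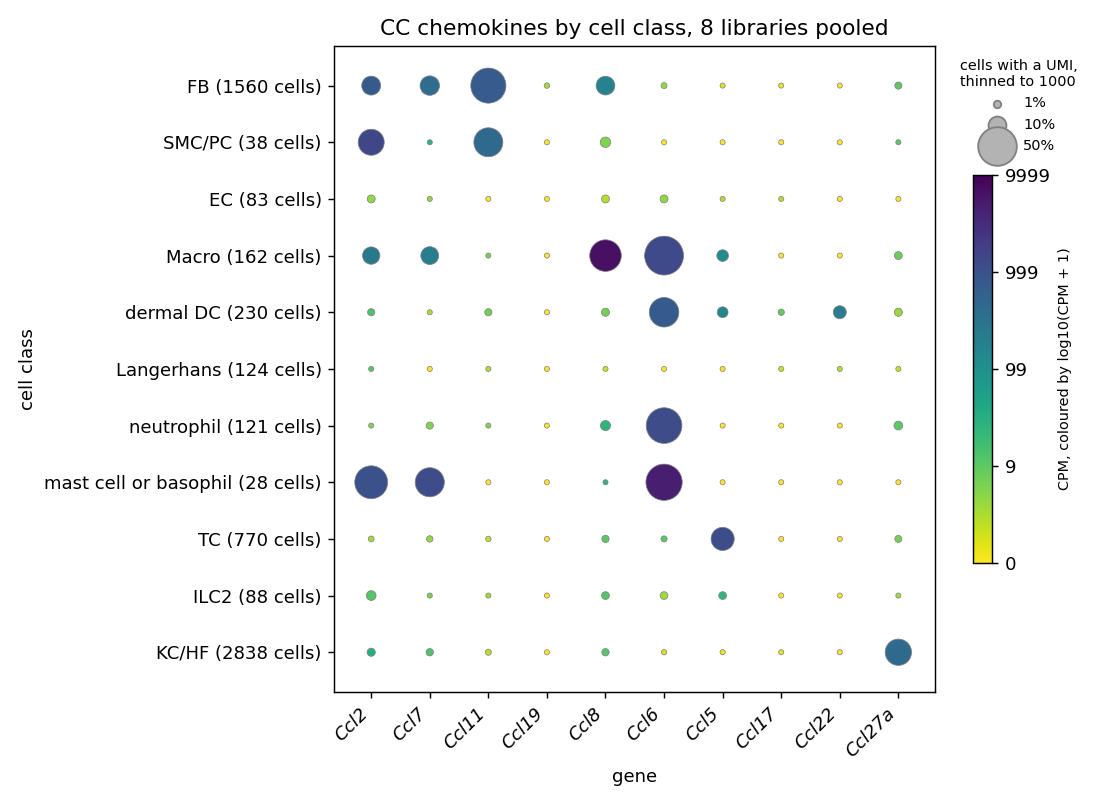
Level of the 10 chemokines (columns) in 11 cell classes (rows), with the 8 libraries pooled. Colour is the CPM on a log10(CPM + 1) scale and the area of a point is the share of cells with a UMI after each cell was thinned to 1000 UMIs; the highest level is that of Ccl8 in Macro (6974 CPM), followed by Ccl6 in the 28 mast cell- or basophil-like cells (4536 CPM) and Ccl2 in the 38 SMC/PCs (1415 CPM).

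Ccl11, eotaxin, was the most even of the chemokines of FBs. Its level in FBs was 738 CPM ± 185 (SD, n = 8 libraries), and the next named class with values per library was dermal DCs at 6.19 CPM (FBs higher in 7 of 7 libraries). UMIs of Ccl11 were found in 75.7% of FBs, and in 41.2% after thinning to 1000 UMIs, against 0.36% of thinned KC/HFs. The 10 cells with the most Ccl11 held 4.44% of its 10254 UMIs. Across FB clusters it was highest in cluster 22 (1212 CPM), cluster 7 (1021 CPM, in 98.6% of its cells) and cluster 0 (952 CPM). The genes whose level over 33 clusters was most like that of Ccl11 were Galnt16 (r = 0.98), Rarres2 (r = 0.98) and Meg3 (r = 0.98). Ccl11 was also 442 CPM in the 38 SMC/PCs and 270 CPM in the unnamed cluster.

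Ccl2 and Ccl7 came from fewer cells and were found together. Ccl2 was in 19.4% of FBs (11.4% after thinning) and Ccl7 in 30.3% (12%). The 10 richest cells held 30.4% of the 11966 Ccl2 UMIs, with 540 in 1 cell, and 19.4% of the 5851 Ccl7 UMIs. Of the 177 thinned FBs with Ccl2, 56.5% also had Ccl7, against 6.31% of the other FBs, while Ccl11 was in 52.0% and 39.8%. The same pair was found together in Macro, where 53.3% of the 15 thinned cells with Ccl2 and 5.52% of the rest had Ccl7. Over the clusters Ccl2 and Ccl7 were among each other's 3 most like genes (r = 0.89), and Has2, a hyaluronan synthase, and Vcam1 stood beside Ccl2 (r = 0.89 and 0.87). Ogn (r = 0.89) and Steap3 (r = 0.88) stood beside Ccl7. These are correlations over clusters that share libraries and depth.

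Much of Ccl2 came from 1 FB cluster. Cluster 22, led by Ptx3, Cxcl1 and Il6 besides Ccl2 and Ccl7, had 93 cells, of which 52 came from PBMCsec library 3. It reached 7749 CPM of Ccl2 (in 84.9% of its cells) and 2109 CPM of Ccl7, and held 50.8% of all Ccl2 and 28.3% of all Ccl7 UMIs. No other FB cluster exceeded 515 CPM of Ccl2. Of the Ccl2 UMIs of FBs, cluster 22 gave 61%, 0%, 60.7% and 65.2% in PBMCsec libraries 1 to 4, and 0%, 0%, 50.3% and 86.5% in vehicle libraries 1 to 4. It had no cell in PBMCsec library 2 and in vehicle libraries 1 and 2, so that the cluster was missing from a library of either treatment. In the remaining FBs the Ccl2 level was 411, 66.1, 659 and 46.5 CPM after PBMCsec and 181, 979, 125 and 16.7 CPM after vehicle.

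**Figure D2:**
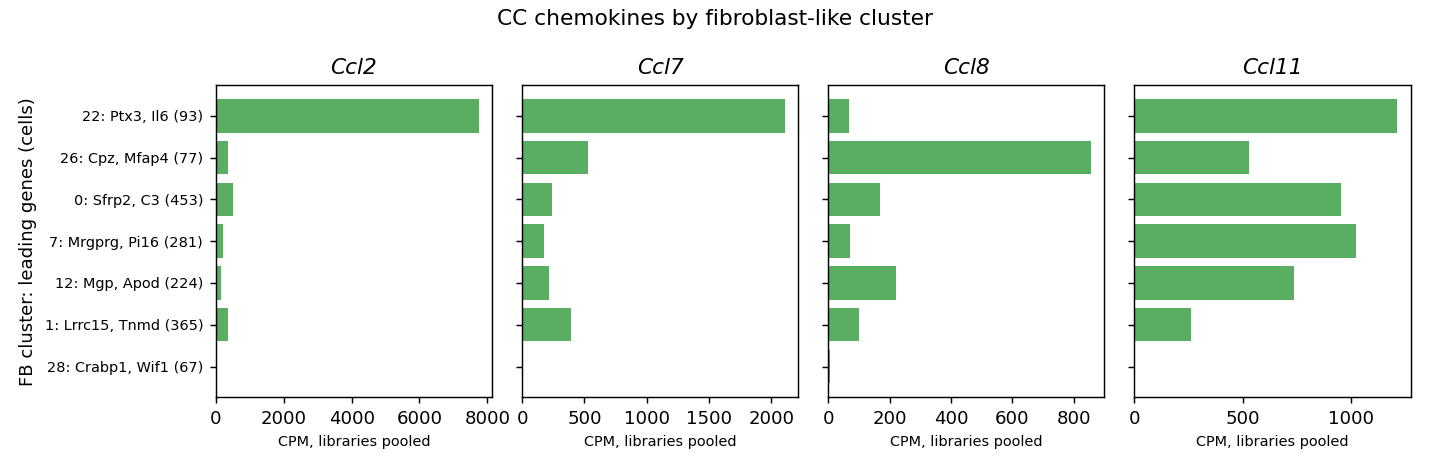
CPM of Ccl2, Ccl7, Ccl8 and Ccl11 (horizontal axes, from 0, each panel with its own scale) in the 7 FB clusters, named by their number, leading genes and cells, with the 8 libraries pooled. Cluster 22 stands out for Ccl2 (7749 CPM) and Ccl7 (2109 CPM), cluster 26 for Ccl8 (857 CPM), and Ccl11 is spread over 6 of the clusters.

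In all libraries together FBs and Macro could not be ordered for these genes. Ccl2 was 528 CPM ± 554 (SD, n = 8) in FBs and 267 CPM ± 242 (n = 6) in Macro, higher in FBs in 3 of the 6 libraries with both. Ccl7 was 261 CPM ± 223 in FBs and 210 CPM ± 192 in Macro, higher in FBs in 5 of 6. Both were far lower in KC/HFs (42 CPM of Ccl2 and 10.2 CPM of Ccl7), where Ccl2 was found above all in cluster 4 (177 CPM, in 24.1% of 320 cells). Small classes with high pooled levels were SMC/PCs (Ccl2 1415 CPM) and mast cell- or basophil-like cells (Ccl2 1022 CPM, Ccl7 1221 CPM), which had too few cells for values per library. At a mitochondrial limit of 10% both chemokines were higher in Macro than in FBs, by 0.24 (Ccl2) and 0.94 (Ccl7) on the log2 scale.

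Ccl8 was the chemokine of Macro and, at a lower level, of FBs. Macro had 6235 CPM ± 4762 (SD, n = 6) and FBs 214 CPM ± 126 (n = 8), with Macro higher in 6 of 6 libraries. This mean of Macro mixes the treatments. It holds all PBMCsec libraries (6608 to 12290 CPM) and, of the vehicle libraries, only 3 and 4 (396 and 725 CPM). FBs were higher than neutrophil-like cells (12.4 CPM) in 4 of 4. A UMI of Ccl8 was found in 37.7% of Macro and 41.7% of FBs, but in 33.1% and 11.1% after thinning. The 10 richest cells held 41.8% of the 9908 Ccl8 UMIs, the largest such share among the genes with over 1000 UMIs, and 1 cell held 823. The 100 richest cells held 84.0% of Ccl8, less than the 92.4% of Ccl5. Among FBs Ccl8 was highest in cluster 26, led by Cpz and Mfap4 (857 CPM, in 76.6% of 77 cells). The genes most like it over the clusters were Reps2 (r = 0.81), Scamp5 (r = 0.80) and Tmem106a (r = 0.77), values lower than those of most other members.

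Ccl6 was a gene of several myeloid classes. It was 1029 CPM ± 596 (SD, n = 4 libraries) in neutrophil-like cells, 1009 CPM ± 573 (n = 6) in Macro and 755 CPM ± 117 (n = 7) in dermal DCs. In the 3 libraries with enough cells of both, PBMCsec libraries 1, 2 and 4, Macro was above neutrophil-like cells by 0.49 ± 0.09 (SD, log2 scale). No vehicle library is among them. With fewer cells, neutrophil-like cells were higher in vehicle libraries 1 and 3 and PBMCsec library 3, and Macro in vehicle libraries 2 and 4. Macro was above dermal DCs in 4 of 6. All 3 classes were above TCs at 13.4 CPM (dermal DCs higher in 7 of 7). A UMI was found in 79.0% of Macro, 44.8% of dermal DCs and 44.6% of neutrophil-like cells, and in 50.6%, 28.9% and 42.6% after thinning, whereas 0.322% of thinned FBs had one. The 28 mast cell- or basophil-like cells had 4536 CPM. Ccl9, another myeloid CC chemokine, was the most like gene (r = 0.96). In Macro, Ccl6 and Ccl8 were not found together more often than apart, as 45.3% of thinned cells with Ccl8 and 53.3% of those without it had Ccl6.

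Ccl5 was a gene of part of the TCs. Its level was 982 CPM ± 730 (SD, n = 8) in TCs, 121 CPM ± 122 (n = 6) in Macro and 118 CPM ± 158 (n = 7) in dermal DCs, and TCs were above Macro in 6 of 6 libraries. A UMI was found in 21.6% of TCs (17.4% after thinning), and in 0.449% of FBs. After thinning it was in 0 of 1555 FBs, which at that depth allows a share with a UMI of up to 0.237%. Cluster 18, led by Xcl1, Nkg7 and Prf1, genes of cytotoxic lymphocytes, and by Trdc, had the highest level (2552 CPM, in 45.2% of 157 cells) and held 49.0% of the Ccl5 UMIs. Cluster 6, led by Cd4 and Trac, had 1484 CPM and 36.0% of the UMIs, and cluster 11, led by Ctla4 and Icos, genes of activated and regulatory T cells, had 183 CPM. In cluster 23, which had 5 markers of γδ T cells, only 1 of 91 cells had a Ccl5 UMI. Ms4a4b (r = 0.94), Cxcr3 (r = 0.94) and Cd8a (r = 0.92) were the most like genes over the clusters.

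Ccl22 and Ccl17 were found in few dermal DCs. Of 401 Ccl22 UMIs 399 were in dermal DCs, in 20 of their 230 cells and in 5 of 8 libraries, and the 10 richest cells held 94.5%. The level per library was 193 CPM ± 229 (SD, n = 7) in dermal DCs and 3.23 CPM in Langerhans-like cells, where only 1 of 5 libraries had a UMI. Ccl17 had 35 UMIs in 25 cells, of which 16 UMIs were in 6 dermal DCs and 13 were single UMIs in 13 KC/HFs, so its level in dermal DCs (7.66 CPM ± 14.8) rests on few molecules. Of the 20 dermal DCs with Ccl22, 5 also had Ccl17, against 1 of the other 210.

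The dermal DCs with Ccl22 differed from the other dermal DCs in further genes that the choice did not use. Ccr7, the receptor of Ccl19, was 616 CPM in the 20 cells and 30.5 CPM in the other 210. Of 9 listed markers of mature DCs, 8 were higher in the 20 cells, among them Fscn1 (712 against 9.79 CPM), Cacnb3 (244 against 2.30), Il4i1 (356 against 28.2) and Traf1 (499 against 108), and Apol7c had no UMI in either. Ccl5 was 1343 CPM against 21.9, and Ccl6 was lower, 188 against 825 CPM. Xcr1, a gene of type 1 conventional DCs, was 91.6 CPM against 124, and Cd209a 570 against 697. The cells were few, came from 5 libraries and were not independent of one another, so no test was made. Over the clusters the genes most like Ccl22 were AY761185 (r = 0.996), Xcr1 (r = 0.99) and Clec9a (r = 0.99), where dermal DCs are 1 of the 33 clusters. Within that cluster Xcr1 and Clec9a were not higher in the cells with Ccl22. Ccl17 had Ccl22 as its most like gene (r = 0.75).

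Ccl19 was barely detected, with 35 UMIs in 25 cells, 34 of them in FBs (1.58 CPM ± 1.52, SD, n = 8). Of these UMIs 15 came from the 77 cells of FB cluster 26, at 19.2 CPM, and 18 from cluster 1. Its most like genes, Miat (r = 0.98), Igfbp2 (r = 0.94) and Cdh4 (r = 0.92), rest on these small counts.

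Ccl27a was a gene of keratinocytes and the hair follicle. KC/HFs had 593 CPM ± 262 (SD, n = 8) and FBs, the next class, 7.92 CPM ± 2.36, with KC/HFs higher in 8 of 8 libraries. It was in 46.7% of KC/HFs and 22.7% after thinning, against 0.836% of thinned FBs. Cluster 4, led by Sostdc1 and Aldh3a1, had 1866 CPM in 97.2% of 320 cells and held 45.1% of the 12585 UMIs. It was followed by cluster 25, led by Cst6 and Lor (656 CPM), cluster 9, led by Serpinb2 and Krt16 (591 CPM), and cluster 3 with Krt14 (582 CPM), while cluster 2, with the hair follicle stem cell gene Lgr5, had 28.4 CPM and cluster 13 had 50.6 CPM. Within cluster 4 the libraries with at least 10 of its cells lay between 1483 and 2743 CPM. Mill1 (r = 0.95), Fcgbp (r = 0.94) and Skint1 (r = 0.92) were the most like genes.

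The receptors of these ligands were found mostly on leukocytes, some of them on classes that also held the ligand. Ccr2, the receptor of Ccl2 and Ccl7, was 1719 CPM in ILC2, 1067 CPM in Macro, 708 CPM in dermal DCs and 691 CPM in TCs (pooled values), and 0.517 CPM in FBs. Neutrophil-like cells held 51.5% of the Ccr1 UMIs at 1671 CPM. Ccr3, the receptor of Ccl11, was rare, at 51.8 CPM in ILC2 and 8.76 CPM in TCs. Ccr8, a receptor of mouse Ccl8, was 27.3 CPM in ILC2 and 11 CPM in TCs, which held 76.1% of it. TCs held 74.1% of the Ccr4, 90.4% of the Ccr10 and 40.1% of the Ccr7 UMIs, at 39.4, 29.4 and 38.5 CPM, and dermal DCs 56.7% of Ccr7 at 90.0 CPM. The scavenging receptors Ackr1 and Ackr2 were highest in ECs (109 and 60 CPM), Ackr4 was 24.9 CPM in KC/HFs, and Ackr3, best known for CXC ligands, was 406 CPM in FBs.

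Other CC ligands had sources of their own. Ccl21a, a ligand of Ccr7, was 23363 CPM in ECs, which held 99.1% of it. Ccl3 and Ccl4 were highest in mast cell- or basophil-like cells (4162 and 5421 CPM) and neutrophil-like cells (3415 and 6367 CPM). Ccl12 was nearly all in Macro (99%, 188 CPM), Ccl9 was 862 CPM in Macro and 532 CPM in dermal DCs, and Ccl24 was 252 CPM in Macro and 106 CPM in dermal DCs.

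The design asked which genes differ between PBMCsec and vehicle. Values below are CPM scaled by the TMM method, over the UMIs of only those genes that passed the filter on low counts. They are therefore not on the scale of the CPM given above. Marker levels, values within clusters of TCs and those of Macro at the 10% limit are over all UMIs of the cells. Differences are log2 fold changes of PBMCsec over vehicle from edgeR's quasi-likelihood test on counts summed per library. Adjusted p-values are over all genes tested in that class (Benjamini-Hochberg). Single values were also compared with an exact two-sided permutation test, whose smallest possible p for 4 against 4 libraries is 0.0286. In all kept cells edgeR called 0 of 13182 genes. At an unadjusted p under 0.05, 260 genes were higher (1.97%) and 75 lower (0.569%), and DESeq2 called 10 (0.0759%), of which Ccl8 was the only member of the list. Of the 10 chemokines 8 had enough counts, and 5 of these were higher at an unadjusted p under 0.05, with a median log2 fold change of 1.84 over the 8 against -0.02 over all genes. The 5 were Ccl2, Ccl5, Ccl7, Ccl8 and Ccl11. None passed the adjustment in edgeR. The members were chosen with earlier results of these data known, and the count is a description.

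The value in all kept cells moves with the mix of cells, and fewer cells of a type and less RNA per cell cannot be told apart there. FBs made up 20.1% to 35.4% of the cells after PBMCsec and 13% to 22.5% after vehicle. Macro made up 2.24% to 4.15% and 1.69% to 3.97%, and TCs 11.3% to 30% and 7.84% to 29.1%. Ccl11 in all kept cells was 284, 278, 318 and 123 CPM in PBMCsec libraries 1 to 4 and 114, 105, 154 and 136 CPM in vehicle libraries 1 to 4. This gave a log2 fold change of 0.97 (SE 0.29, p = 0.00804, adjusted p = 1.0 by edgeR; exact permutation p = 0.0857), with PBMCsec library 4 among the vehicle values. In FBs alone, Ccl11 was 923, 1013, 822 and 530 CPM after PBMCsec and 488, 939, 655 and 631 CPM after vehicle. There the groups overlapped and the log2 fold change was 0.28 (SE 0.26, adjusted p = 1.0 by edgeR). The smaller difference within FBs stands beside the larger share of FBs after PBMCsec. The part of that share in the difference over all cells was not tested.

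**Figure D3:**
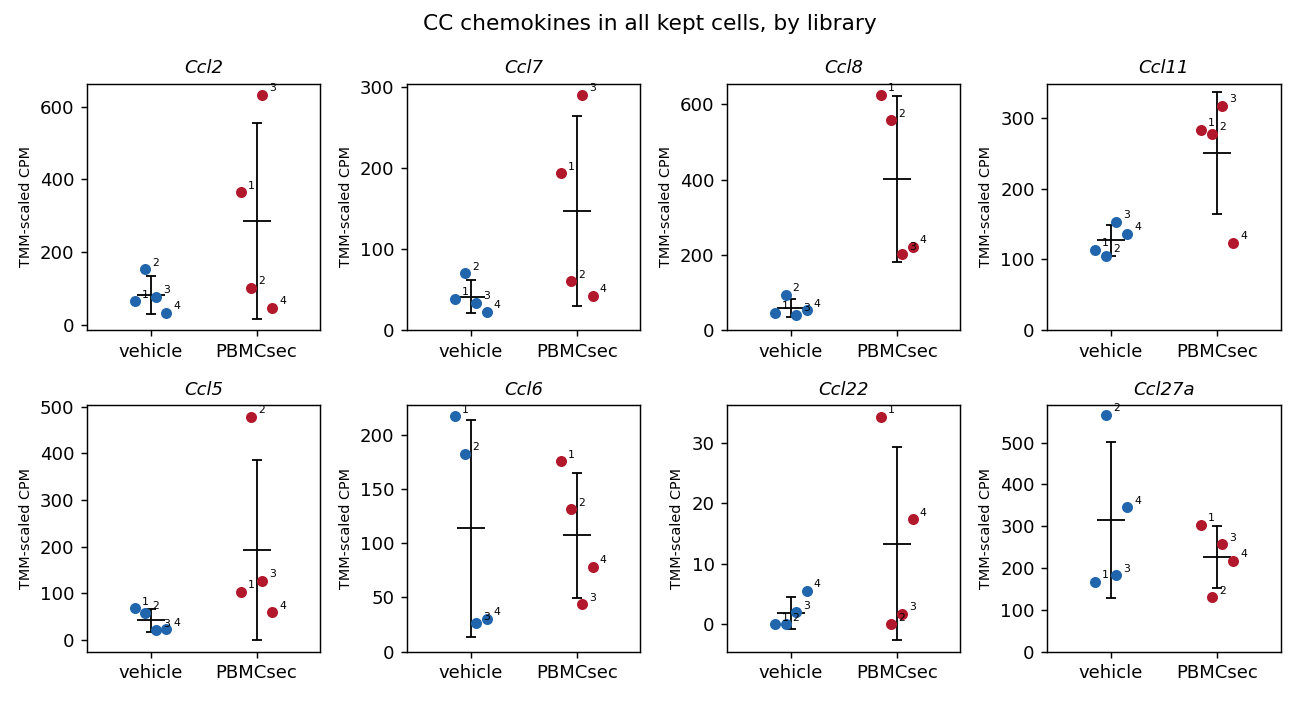
TMM-scaled CPM (vertical axes) of 8 chemokines in all kept cells of the vehicle and PBMCsec libraries; each point is a library with its number, and lines are the mean ± SD of 4 libraries. Ccl8 is the gene whose groups do not overlap (202 to 625 CPM against 40.3 to 92.6 CPM), and Ccl5 has 1 PBMCsec library far above the rest (479 CPM).

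Ccl8 had the largest difference in all kept cells. It was 625, 558, 202 and 221 CPM in PBMCsec libraries 1 to 4 and 45.9, 92.6, 40.3 and 51.6 CPM in vehicle libraries 1 to 4. All PBMCsec libraries were above all vehicle libraries, as for 1.1% of the genes tested. The log2 fold change was 2.81 (SE 0.46, p = 0.000163, adjusted p = 1.0 by edgeR; exact permutation p = 0.0286), and DESeq2 gave an adjusted p of 6.64e-06. Without the Macro class the log2 fold change of Ccl8 was 1.15. With a mitochondrial limit of 10% it was 1.90, and over all deposited barcodes it was 1.15.

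In Macro the Ccl8 values were the highest of any class. The vehicle libraries had few of these cells, so the class was tested with a minimum of 5 cells per library, a setting added after the data were seen. Macro libraries numbered 1 to 4 held 29, 13, 34 and 32 cells after PBMCsec and 6, 5, 28 and 15 after vehicle. Ccl8 was 16279, 11548, 11443 and 8228 CPM after PBMCsec and 319, 4852, 487 and 931 CPM after vehicle, so that the groups did not overlap (1.67% of genes tested in Macro). In Macro the log2 fold change of Ccl8 was 2.94 (SE 0.70, p = 0.00112, adjusted p = 0.369 by edgeR; exact permutation p = 0.0286), and DESeq2 gave an adjusted p of 0.0226. edgeR called 0 of 1733 genes in Macro, with 54 higher (3.12%) and 18 lower (1.04%) at an unadjusted p under 0.05. DESeq2 called 4, Ccl7, Ccl8, Fcrls and Stab1 (0.231%). In vehicle library 2, 94.2% of the Ccl8 UMIs were in 1 cell, and without this library the log2 fold change was 4.32 with an adjusted p of 0.000381. Within the libraries numbered 3 and 4 it was 3.77 (adjusted p = 0.00412), and within those numbered 1 and 2 it was 2.56 (adjusted p = 0.81), by edgeR.

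The call also moved with the filter on cells. At a mitochondrial limit of 10%, Macro had 38, 20, 59 and 36 cells after PBMCsec and 7, 9, 35 and 19 after vehicle. Ccl8, scaled to the totals alone, was then 15694, 10806, 11460 and 9413 CPM after PBMCsec and 2527, 3750, 12703 and 4852 CPM after vehicle. Vehicle library 3 was now above 3 of the 4 PBMCsec libraries, and the log2 difference was 1.24 (exact permutation p = 0.114). At the limit of 5% the same library had 396 CPM. The cells were clustered anew at each limit.

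**Figure D4:**
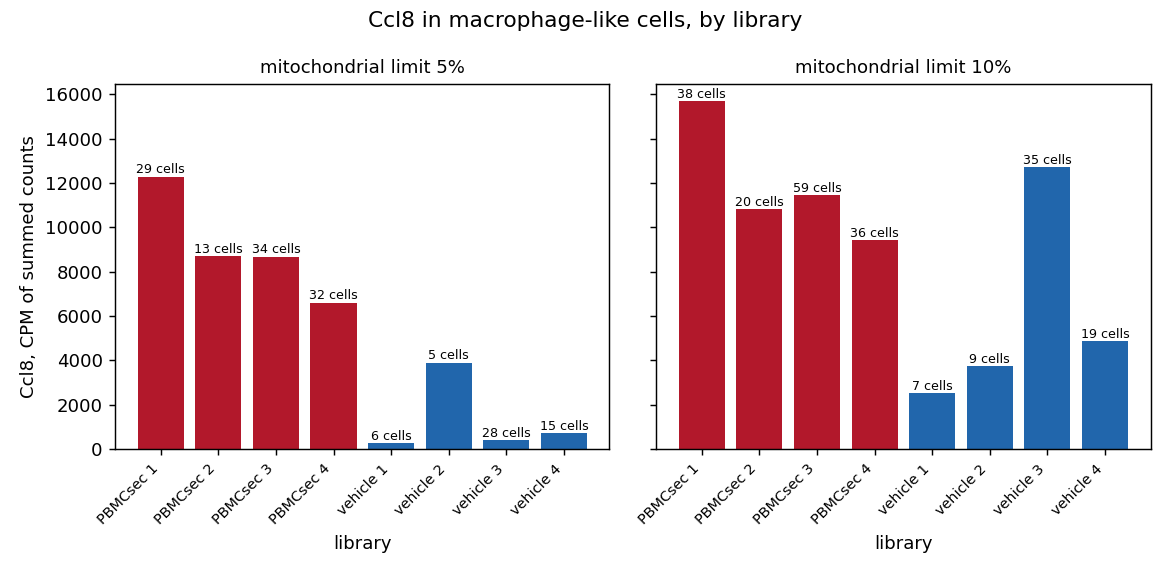
Ccl8 in Macro by library, as CPM of the summed counts (vertical axis, from 0), with the number of cells above each bar; left with the mitochondrial limit of 5%, right with 10%. At 5% the 4 PBMCsec libraries (6608 to 12290 CPM) are above the 4 vehicle libraries (254 to 3900 CPM), and at 10% vehicle library 3 reaches 12703 CPM.

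Macro differed between libraries in other genes too. C1qa, a complement gene of resident macrophages, was 273 and 379 CPM in vehicle libraries 1 and 2 and 1487 to 3813 CPM in the other 6 libraries. The summed level of the 9 Macro markers was 8313 to 12673 CPM after PBMCsec and 3140 to 12517 CPM after vehicle, with all 9 detected in every library. The 6 FB markers summed to 73.7 to 1275 CPM in Macro after PBMCsec and 58.5 to 151 CPM after vehicle, and the 9 markers of dermal DCs to 8559 to 15316 and 6702 to 14739 CPM. Of 19 stress response genes 6 were higher in Macro after PBMCsec at an unadjusted p under 0.05. The part of these in the difference of Ccl8 was not tested.

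In FBs Ccl8 was 241, 511, 162 and 92.7 CPM after PBMCsec and 143, 278, 123 and 196 CPM after vehicle, and the groups overlapped. The log2 fold change was 0.45 (SE 0.45, adjusted p = 1.0 by edgeR), and in PBMCsec library 2 1 cell held 81.0% of the UMIs. On log2(CPM + 10) of the totals alone, the effect of PBMCsec on Ccl8 was 3.57 in Macro and 0.17 in FBs. On this scale it was larger in Macro by 3.41 (exact permutation p = 0.0286, a test chosen after the values were seen). With the mitochondrial limit of 10% this difference was 1.36 (exact permutation p = 0.143).

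Ccl7 and Ccl2 followed in part. In Macro Ccl7 was 416, 704, 306 and 114 CPM after PBMCsec and 0, 94.2, 97.5 and 15 CPM after vehicle, without overlap. The log2 fold change was 2.79 (SE 0.72, p = 0.00201, adjusted p = 0.497 by edgeR; exact permutation p = 0.0286), and DESeq2 gave an adjusted p of 0.0408. These levels rest on 27 cells with a UMI after PBMCsec and 7 after vehicle. At the mitochondrial limit of 10% the groups of Ccl7 in Macro overlapped, with 131 to 1189 CPM after PBMCsec and 27.5 to 366 CPM after vehicle when scaled to the totals alone (log2 difference 2.05, exact permutation p = 0.114). In FBs Ccl7 was 533, 125, 709 and 152 CPM after PBMCsec and 143, 241, 128 and 91.9 CPM after vehicle. Libraries 1 and 3 of PBMCsec were above the rest, and the log2 fold change was 1.40 (SE 0.52, p = 0.02, adjusted p = 1.0 by edgeR; exact permutation p = 0.229). In FBs edgeR and DESeq2 each called 0 of 9573 genes, with 97 higher (1.01%) and 91 lower (0.951%) at an unadjusted p under 0.05 in edgeR. None of the 5 chemokines tested in FBs separated the groups, as 0.658% of genes did with PBMCsec higher.

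Ccl2 in FBs was 1018, 68.5, 1551 and 133 CPM after PBMCsec and 172, 1018, 230 and 123 CPM after vehicle. Values near 1000 or above were found in both groups, and the log2 fold change was 0.90 (SE 0.88, adjusted p = 1.0 by edgeR). In all kept cells Ccl2 was 364, 102, 632 and 46.6 CPM after PBMCsec and 64.6, 153, 78.0 and 32.7 CPM after vehicle (log2 fold change 1.81, SE 0.78, p = 0.0438, adjusted p = 1.0 by edgeR; exact permutation p = 0.257). Libraries 1 and 3 of PBMCsec alone were above the vehicle range. Without PBMCsec library 3, which held 52 of the 93 cells of FB cluster 22, the log2 fold change of Ccl2 in all cells was 1.07 (adjusted p = 1.0 by edgeR).

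In KC/HFs both genes were low. Ccl2 was 37.0, 202, 46.8 and 15.8 CPM after PBMCsec and 0, 12, 31.2 and 5.75 CPM after vehicle (log2 fold change 2.06, SE 0.80, p = 0.0259, adjusted p = 1.0 by edgeR; exact permutation p = 0.0571). Ccl7 was 22.2, 3.81, 35.7 and 6.60 CPM after PBMCsec and 0, 7.64, 4.16 and 3.62 CPM after vehicle (log2 fold change 2.13, SE 0.62, p = 0.0055, adjusted p = 1.0 by edgeR; exact permutation p = 0.171). For both genes the ranges overlapped, while 0.721% of genes in KC/HFs had all PBMCsec libraries above all vehicle libraries. edgeR called 0 of 10822 genes in KC/HFs, with 118 higher (1.09%) and 50 lower (0.462%) at an unadjusted p under 0.05. DESeq2 called 1 (0.00924%). Ccl27a, the chemokine of these cells, was 714, 535, 542 and 338 CPM after PBMCsec and 845, 1059, 253 and 500 CPM after vehicle. The groups overlapped, and the log2 fold change was -0.31 (SE 0.38, adjusted p = 1.0 by edgeR).

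The remaining members in all kept cells were not called either. Ccl7 was 194, 60.2, 291 and 41.8 CPM after PBMCsec and 38.3, 69.9, 33.2 and 22.6 CPM after vehicle (log2 fold change 1.87, SE 0.63, p = 0.0152, adjusted p = 1.0 by edgeR; exact permutation p = 0.114). Vehicle library 2 was above PBMCsec libraries 2 and 4, and over all deposited barcodes the log2 fold change of Ccl7 was 0.82. Ccl6 was 175, 131, 43.8 and 77.9 CPM after PBMCsec and 217, 182, 26.2 and 30.2 CPM after vehicle, a log2 fold change of -0.07 (SE 0.72). In both groups libraries 1 and 2 were above libraries 3 and 4 for Ccl6. Ccl27a was 130 to 303 CPM after PBMCsec and 167 to 567 CPM after vehicle (log2 fold change -0.47, SE 0.42). Ccl22 was 34.4, 0, 1.72 and 17.4 CPM after PBMCsec and 0, 0, 1.96 and 5.54 CPM after vehicle (log2 fold change 2.45, SE 1.24), from 21 cells in all.

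Ccl2 in Macro was 416, 956, 138 and 183 CPM after PBMCsec and 0, 330, 312 and 75.1 CPM after vehicle. The groups overlapped, and the log2 fold change was 1.22 (SE 0.77, adjusted p = 1.0 by edgeR). Ccl8 in KC/HFs was 16, 3.81, 22.9 and 4.95 CPM after PBMCsec and 4.36, 1.09, 9.82 and 1.28 CPM after vehicle, the lowest levels of the gene given by library here. Its log2 fold change there was 1.38 (SE 0.69, adjusted p = 1.0 by edgeR) and the groups overlapped.

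Ccl5 in TCs was higher after PBMCsec in every library, a difference known from earlier results when the genes were chosen. It was 944, 2194, 2381 and 1091 CPM in PBMCsec libraries 1 to 4 and 304, 362, 796 and 513 CPM in vehicle libraries 1 to 4. All PBMCsec libraries were above all vehicle libraries (1.3% of genes tested). In TCs the log2 fold change of Ccl5 was 1.74 (SE 0.34, p = 0.00011, adjusted p = 0.305 by edgeR; exact permutation p = 0.0286). edgeR called 0 of 4708 genes in TCs, with 79 higher (1.68%) and 71 lower (1.51%) at an unadjusted p under 0.05. DESeq2 called 2, Ccl5 and Isg15, an interferon-induced gene (0.0425%), with an adjusted p of 0.00179 for Ccl5. In TCs equal library numbers deviated together, although vehicle library 3 was most like PBMCsec library 4 and the labels do not state a pairing. With the replicate number as a block edgeR called 15 genes, 13 higher (0.276%) and 2 lower. The log2 fold change of Ccl5 was then 1.72 (SE 0.19, adjusted p = 1.21e-05 by edgeR). Within libraries numbered 1 and 2 the log2 fold change was 2.25, and within those numbered 3 and 4 it was 1.41. Leaving out 1 library at a time gave 1.5 to 2.07.

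In the clusters of TCs with the most Ccl5 the range after PBMCsec lay higher, with overlap. Within clusters edgeR called 0 of 1820 genes in cluster 6 and 0 of 1476 in cluster 11. Cluster 18 was not fitted, as vehicle libraries 1 and 2 each had 8 of its cells. In cluster 6 the level was 867 to 3886 CPM after PBMCsec and 0 to 1697 CPM after vehicle. In cluster 18 it was 1153 to 6201 CPM and 725 to 2034 CPM, and in cluster 11 67.1 to 459 CPM and 11 to 347 CPM. The ranges overlapped in each of these clusters. Against the vehicle library of the same number, the PBMCsec library was higher in 4 of 4 pairs in clusters 6 and 11 and in 3 of 4 in cluster 18. The labels do not state these pairs. Cluster 18 made up 17.0% to 23.5% of TCs after PBMCsec and 15.4% to 24.6% after vehicle, and cluster 6 33.0% to 41.5% and 33.1% to 52.3%. TCs with a Ccl5 UMI were 11.5% to 25.4% after PBMCsec and 3.92% to 18.2% after vehicle when thinned to 1000 UMIs. The 10 listed genes of cytotoxic T and NK cells summed to 2359 to 2924 CPM in TCs after PBMCsec and 1030 to 2050 CPM after vehicle, and 3 of the 9 tested were higher at an unadjusted p under 0.05. Their part in the difference of Ccl5 was not tested.

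**Figure D5:**
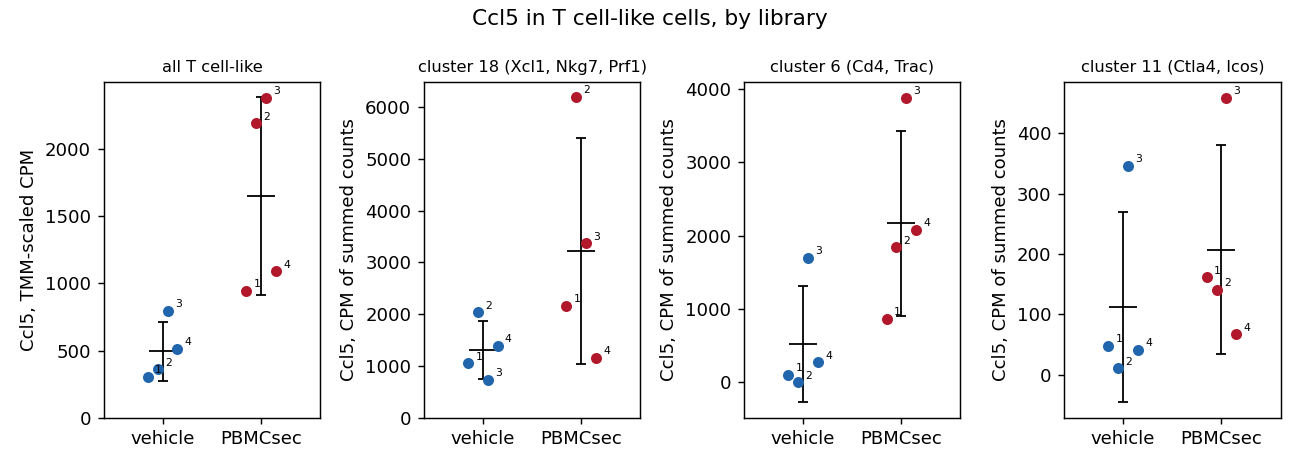
Ccl5 by library in all TCs (TMM-scaled CPM) and in their clusters 18, 6 and 11 (CPM of summed counts); each point is a library with its number, lines are the mean ± SD of 4 libraries, and the vertical axes differ. In all TCs the PBMCsec libraries (944 to 2381 CPM) are above the vehicle libraries (304 to 796 CPM), and within each cluster the ranges overlap.

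In all kept cells Ccl5 was 103, 479, 127 and 59.5 CPM after PBMCsec and 68.0, 58.2, 20.8 and 22.6 CPM after vehicle. PBMCsec library 4 was below vehicle library 1. The log2 fold change was 2.22 (SE 0.70, p = 0.0110, adjusted p = 1.0 by edgeR; exact permutation p = 0.0571), and without PBMCsec library 2 it was 1.24. In dermal DCs Ccl5 was 91.3, 0, 375 and 398 CPM after PBMCsec and 0, 0 and 59.5 CPM in vehicle libraries 1, 3 and 4. Vehicle library 2 had too few dermal DCs and was left out. These UMIs were in 8 cells in all, and the log2 fold change was 3.52 (SE 1.25, p = 0.0162, adjusted p = 1.0 by edgeR; exact permutation p = 0.2).

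Ccl6 in dermal DCs and Macro and Ccl22 in dermal DCs were not called by edgeR as fitted here, though Ccl22 was called without a filter on low counts (adjusted p = 0.00626). Ccl6 in dermal DCs was 746, 958, 755 and 814 CPM after PBMCsec and 1015, 690 and 862 CPM in vehicle libraries 1, 3 and 4, with a log2 fold change of -0.06 (SE 0.21). In Macro Ccl6 was 2640, 491, 1098 and 1587 CPM after PBMCsec and 2133, 3910, 1199 and 781 CPM after vehicle (log2 fold change -0.41, SE 0.53). Both pairs of groups overlapped. Ccl22 in dermal DCs was 623, 0, 46.1 and 502 CPM after PBMCsec and 0, 98.1 and 226 CPM in vehicle libraries 1, 3 and 4 (log2 fold change 1.39, SE 1.12, adjusted p = 1.0 by edgeR). In dermal DCs edgeR and DESeq2 each called 0 of 3778 genes, with 64 higher (1.69%) and 29 lower (0.768%) at an unadjusted p under 0.05 in edgeR, and 2.59% had all PBMCsec libraries higher. Ccl17 (35 UMIs, of which 20 were in vehicle library 3) and Ccl19 (35 UMIs) had too few counts for a test.

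In neutrophil-like cells of the libraries fitted, Ccl3 and Ccl4 were higher after PBMCsec, and Ccl6 was lower without passing the adjustment. The fit used libraries with at least 5 of these cells, which left out vehicle library 4 with 3 cells. Those 3 cells had more Ccl3 and Ccl4 per UMI than the other vehicle libraries. The gaps given here for both ligands are therefore wider than with that library. Ccl6 was 2276, 394, 2417 and 1383 CPM after PBMCsec and 6616, 2145 and 5638 CPM after vehicle. The groups overlapped, and the log2 fold change was -1.59 (SE 0.58, p = 0.0153, adjusted p = 0.369 by edgeR; exact permutation p = 0.171), where 2.66% of genes were lower at an unadjusted p under 0.05. Ccl3 was 6009, 8985, 3759 and 3853 CPM after PBMCsec and 926, 59.6 and 0 CPM after vehicle. Ccl4 was 8133, 18363, 6444 and 9090 CPM after PBMCsec and 1191, 59.6 and 0 CPM after vehicle. Both ligands passed the adjustment, with log2 fold changes of 4.17 (SE 0.78, adjusted p = 0.0171) for Ccl3 and 4.72 (SE 0.80, adjusted p = 0.0138) for Ccl4 by edgeR, and Gadd45b was the third of 3 genes called among 413 (0.726%). For all 3 the groups did not overlap, as for 3.63% of genes, and DESeq2 called 5 genes (1.21%). The vehicle libraries had 6, 15 and 6 of these cells, and no gene was called without vehicle library 2 or without vehicle library 3. Over the other settings the adjusted p of Ccl4 reached 0.3. With edgeR as fitted here, the only other listed gene called in any class was the heat shock gene Hspb1 in ECs. Its log2 fold change was 3.17 (SE 0.41, adjusted p = 0.00594 by edgeR), and it was the 1 gene called of 1482 (0.0675%). It was 6771, 5123 and 3814 CPM in PBMCsec libraries 1, 3 and 4 and 334, 427 and 1044 CPM in vehicle libraries 2 to 4, without overlap, and was not called at a mitochondrial limit of 10% (log2 fold change 1.83). Of 20 stress response genes tested in ECs 16 were higher at an unadjusted p under 0.05, against 51 of all 1482 genes.

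No CC receptor was called by edgeR as fitted here in any class tested, though Ccr6 was called in ILC2 without a filter on low counts. In Macro 1 receptor and in neutrophil-like cells 1 were higher at an unadjusted p under 0.05. Of the 15 CC receptors 13 had enough counts in all kept cells and 0 were higher or lower at an unadjusted p under 0.05, and of the 14 other CC ligands 9 had and 0 were. In Macro Ccr2 was 888 to 1474 CPM after PBMCsec and 942 to 2476 CPM after vehicle (log2 fold change -0.60, SE 0.32), and the groups overlapped. In TCs 0 of 7 receptors tested were past an unadjusted p of 0.05. Of 22 listed cytokines and signalling genes that induce chemokines, 20 were tested in all kept cells and 0 passed an unadjusted p of 0.05. In TCs the list had 1 of 15 tested higher at that level and in Macro 2 of 6.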

How the data were processed

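Droplet libraries (10x Genomics 3' chemistry) were made from enzymatically dissociated dorsal skin. Matrices of raw UMI counts, genes by barcodes, were deposited by the authors. They were made with Cell Ranger 3.0.2 per the file headers and the submitters' processing notes, on the mm10 build. Reads were not used here. Groups and library numbers came from the labels. As in the study's methods, barcodes were kept that had between 500 and 4000 genes, no more than 20000 UMIs and a mitochondrial share of no more than 5%, and 3 genes were removed. Cells were integrated and clustered with Seurat 5.3.0 (R 4.3.3), with the listed chemokine genes left out of the variable genes. A class was considered for a cluster when 3 or more of its markers were detected in 25% or more of the cells. These markers also had to reach 2-fold or more of the median level over clusters (prior of 10 CPM). Of such classes, the cluster took the name of that whose leading markers had the highest mean log2 fold. A cluster of low depth without a marker of that class among its leading genes stayed unnamed. A doublet caller marked 21 cells (0.341%), too few to have worked, so doublets were not removed, and an alternative left out the 5% of cells with the highest doublet score.

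Counts were summed per library and class, for classes with at least 10 cells per library in at least 3 libraries per group. They were filtered for low counts, scaled by TMM on the totals of the genes left, and tested with edgeR 4.0.16. The quasi-likelihood test was used with edgeR's default prior count for the fold changes and Benjamini-Hochberg adjustment at 0.05. DESeq2 1.42.0, other scalings, no filter, the replicate block, single libraries left out, libraries numbered 1 and 2 or 3 and 4 alone, a mitochondrial limit of 10% and all barcodes were alternatives. The minimum of 5 cells for Macro and neutrophil-like cells, single clusters, all cells without Macro and the comparison of Macro with FBs were added after the data were seen. Exact permutation tests were two-sided over the 70 labellings of 4 against 4, on TMM-scaled log2 CPM with a prior count of 2. Those of Macro against FBs and of Macro at the 10% limit used log2(CPM + 10) of the totals alone. Python 3.11.15, NumPy 2.4.6, SciPy 1.17.1 and pandas 2.3.3 were used otherwise. Shares of cells were compared after thinning each cell to 1000 UMIs, and the limit for a share of 0 is the upper bound of the exact (Clopper-Pearson) 95% interval. Intervals cover counting error only.

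The genes named are the 10 members in every class, listed genes past an adjusted p of 0.05, the receptors (1 of them is not reported here), and the 3 genes with the highest Pearson r of log2(CPM + 10) over clusters of at least 30 cells, among genes with at least 100 UMIs. The members and lists were chosen with earlier results of these data known. Samples of the same number deviated together in all cells (r = 0.31 to 0.66 over genes) and TCs (r = 0.18 to 0.40), but not in FBs, KC/HFs and Macro, where at least 1 number had r under 0.1. On simulated counts edgeR recovered 90% of the 4-fold and 100% of the 8-fold changes in all cells (13182 genes). These counts took their spread between libraries from the trend over all genes. They therefore do not show what would be recovered for genes with a larger spread, such as chemokines held by few cells. Sequences came from RefSeq (GRCm38.p6), in which 6 of the 10 genes had an entry.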

Additional observations from a re-analysis of the deposited data

Results flagged for a closer look

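Among the groups of 4 libraries examined for the members, 4 of 44 had 1 library whose gap to the nearest of the others, divided by the range of the group, was above Dixon's limit of 0.829, which chance passes in about 1 in 20 groups. In all kept cells Ccl5 was 479 CPM in PBMCsec library 2 and 59.5 to 127 CPM in the other PBMCsec libraries (ratio 0.839). In FBs Ccl2 was 1018 CPM in vehicle library 2 and 123 to 230 CPM in the other vehicle libraries (ratio 0.88). In KC/HFs Ccl2 was 202 CPM in PBMCsec library 2 and 15.8 to 46.8 CPM in the others (ratio 0.833). In Macro Ccl8 was 4852 CPM in vehicle library 2, which had 5 of these cells, and 319 to 931 CPM in the other vehicle libraries (ratio 0.865).

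The effect of PBMCsec on Ccl8 differed between Macro and FBs by 3.41 on the log2 scale (exact permutation p = 0.0286, the smallest that 4 against 4 libraries allow). It was 3.57 in Macro and 0.17 in FBs, and the Macro level minus the FB level was 4.12 to 6.09 after PBMCsec and 0.72 to 3.82 after vehicle. The same difference for Ccl7 was 1.90 (exact permutation p = 0.143). For Ccl8 the test was chosen after the values were seen. At a mitochondrial limit of 10% the difference of Ccl8 was 1.36 (exact permutation p = 0.143).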

How the results depend on the processing

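Of 299 values of 30 fold changes under other settings 287 kept their direction, as did all but 9 of 229 values with 1 library left out. Many of these settings refit the same summed counts. A coarser clustering left classes such as TCs and Macro unchanged, so that part of the agreement was given in advance. DESeq2 called 10 genes in all cells, 1 in KC/HFs, 2 in TCs, 5 in ECs, 4 in Macro, 5 in Langerhans-like cells, 5 in neutrophil-like cells and 1 in ILC2, where edgeR called 0, 0, 0, 1, 0, 0, 3 and 0. Without a filter on low counts edgeR called 44 of 14572 genes in TCs, 72 of 13480 in dermal DCs and 44 of 12508 in Macro. It called 59 of 11830 in ECs, 15 of 11879 in Langerhans-like cells, 9 of 8268 in neutrophil-like cells and 22 of 10357 in ILC2. Among them were Ccl5 and Ccl6 in TCs, Ccl5 and Ccl22 in dermal DCs and Ccl7 and Ccl8 in Macro. Of the Ccl6 UMIs of TCs, 29 were in 1 cell of cluster 23. With the replicate block edgeR called 15 in TCs, 2 in ECs and 5 in neutrophil-like cells, and Ccl6 in all cells moved from -0.07 to 0.33. Libraries of the same number deviated together in all cells and TCs only, and in all cells the block changed no call. Not every library was most like that of its own number, as PBMCsec library 2 was most like vehicle library 1 in all cells. The labels do not state a pairing. Libraries numbered 1 and 2 alone gave 65 calls in dermal DCs, 43 in Langerhans-like cells and 7 in ILC2, each with 2 PBMCsec libraries against 1 vehicle library, which is assumed to vary like the others, so nothing is read from them. They gave 0 in neutrophil-like cells, and those numbered 3 and 4 gave 4 in TCs, 1 in Macro, and 0 in ECs and neutrophil-like cells (for the latter with 1 vehicle library). The limit of 10% gave 0 calls in ECs and 1 in neutrophil-like cells. Without likely doublets there was 1 in Macro, 1 in Langerhans-like cells and 0 in neutrophil-like cells. Leaving out 1 library gave 0 to 1 calls in TCs, 0 to 31 in ECs, 0 to 1 in Macro, 0 to 4 in Langerhans-like cells, 0 to 4 in neutrophil-like cells and 0 to 2 in ILC2.

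The following log2 fold changes turned in direction. Ccl6 in all cells was 1.11 in libraries 3 and 4, 0.28 at the 10% limit, 0.79 over all barcodes and -0.40 to 0.47 with 1 library left out. Ccl2 in FBs was -0.12 in libraries 1 and 2, and in Macro -0.35 in libraries 3 and 4. Ccl8 in FBs was -0.30 in libraries 3 and 4, -0.16 at the 10% limit and -0.12 to 0.74 with 1 library left out. Ccl27a was -0.26 to 0.15 in FBs and -0.60 to 0.031 in KC/HFs with 1 library left out, and 0.23 in KC/HFs in libraries 3 and 4. Ccl6 was 0.026 in dermal DCs and 0.41 in Macro in libraries 3 and 4, 0.081 in Macro without likely doublets, and -0.18 to 0.076 and -0.87 to 0.11 with 1 library left out. Between classes, the 10% limit gave -0.24 for Ccl2 (FB minus Macro, -0.20 to 1.20 with 1 library left out), and -0.94 for Ccl7 (FB minus Macro). Others moved with no turn in direction: Ccl6 (neutrophil minus Macro) from -0.49 to -0.36 at the 10% limit, and Ccl22 (dermal DC minus Langerhans) from 4.01 to 2.14 without likely doublets. Causes were not tested. Macro and neutrophil-like cells were few in the vehicle libraries, which limits what these classes can show.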
